A study of Mus musculus with 20 samples.

Results

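The promoters of 10 genes of Leydig cell steroidogenesis were described in mouse sperm DNA: Star, Cyp11a1, Cyp17a1, Hsd3b1, Hsd3b6, Hsd17b3, Lhcgr, Insl3, Nr5a1 and Scarb1. They are the rows of the deposited promoter table that carry these symbols, 10 of 22480 promoters, and all 10 genes had a row. The study asked whether DEHP, the plasticizer di-(2-ethylhexyl) phthalate, given to pregnant mice alters sperm DNA methylation in their sons in a strain-dependent way. Sperm of 20 F1 males aged 8 weeks was used, 5 males in each of 4 groups. The C57BL/6J DEHP and FVB/N DEHP males were sons of mothers of the same strain gavaged with 300 mg/kg/day of DEHP in corn oil from gestation day 9 to 19. The C57BL/6J control and FVB/N control males were sons of mothers given corn oil alone over the same days. The labels name neither mothers nor litters, so brothers cannot be told from unrelated males, and the p-values below measure the spread between libraries. The DEHP libraries and the control libraries were prepared and sequenced as separate submissions with 5 males of each strain apiece, which means that a DEHP effect and a submission effect cannot be told apart.

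Leydig cells lie between the seminiferous tubules and make testosterone when luteinizing hormone from the pituitary binds its receptor on their surface. The hormone signal raises cAMP, cholesterol is carried to the inner mitochondrial membrane, and a chain of cytochrome P450 and hydroxysteroid dehydrogenase enzymes turns it into androgen. Phthalates are known, chiefly from rats, for lowering fetal testicular testosterone, together with the expression of several of these genes in fetal Leydig cells. Sperm are not Leydig cells: the values here are the methylation signal that the promoters of these genes carry in the germ line DNA of adult males, and no expression was measured in these libraries.

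Each value is the number of read-pairs over a promoter probe after capture of methylated fragments by a methyl-binding domain (MBD-sequencing), normalized by the authors and deposited as a mean and SD per group, in normalized reads. A probe covers 2200 bp, from upstream of the transcription start to just past it, and more CG methylation in it gives more reads. Over all promoters the group medians were 5, 5.3, 3 and 4.9 normalized reads, in the order C57BL/6J control and DEHP, then FVB/N control and DEHP, and the group sums lay between 141092 and 226268. The sum of C57BL/6J control was 1.48 times that of C57BL/6J DEHP, so the calls are given also with means scaled to equal sums over the 4 groups. That scaling moved the median log2 ratio over all promoters from -0.10 to 0.33 for DEHP against control in C57BL/6J, and from 0.54 to 0.00 for C57BL/6J against FVB/N in controls. As a check on the label of the material, 14 promoters of maternally methylated imprinted genes, which sperm leave unmethylated, had medians of 3.85, 4.05, 2.80 and 2.95 normalized reads in the same group order. Below the median of all promoters lay 10, 11, 8 and 10 of these 14, and whether each probe covers the imprinted CG sites was not checked. Their summed level ranged from 58.0 to 72.6 normalized reads, and the highest single value was 26.5 in C57BL/6J control. By the limma test below, Sgce and Nnat were called lower with DEHP in C57BL/6J (13.3% of all promoters) and Snrpn and Impact higher (2.93%). In FVB/N Sgce alone was called, lower (1.35%). Sgce went from 5.1 to 1.4 in C57BL/6J and from 10.8 to 1.3 in FVB/N. In C57BL/6J Nnat went from 26.5 to 9.5, Snrpn from 0.5 to 4.0 and Impact from 4.0 to 9.5. With equal sums Sgce lost its call in C57BL/6J.

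The sequence just upstream of the start differed widely among the members, and with it the number of sites that the capture can bind. RefSeq promoters (GRCm38.p6, the mm10 chromosomes) were at hand for 6 members, Cyp11a1, Hsd3b1, Hsd3b6, Hsd17b3, Lhcgr and Insl3. Those of the CG-richest genes, Insl3 and Lhcgr, and of the CG-poorest, Hsd3b1 and Hsd3b6, are printed 5' to 3' up to the RefSeq start, without bases of their own exons, with each CG in capitals.
Insl3 (chr8:71689002-71689213, plus strand): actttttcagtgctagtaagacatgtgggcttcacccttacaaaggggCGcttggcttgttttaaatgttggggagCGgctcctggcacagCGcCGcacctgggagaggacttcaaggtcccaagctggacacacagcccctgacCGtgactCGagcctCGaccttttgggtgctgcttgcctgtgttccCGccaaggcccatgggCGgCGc
Lhcgr (chr17:88792015-88792264, minus strand): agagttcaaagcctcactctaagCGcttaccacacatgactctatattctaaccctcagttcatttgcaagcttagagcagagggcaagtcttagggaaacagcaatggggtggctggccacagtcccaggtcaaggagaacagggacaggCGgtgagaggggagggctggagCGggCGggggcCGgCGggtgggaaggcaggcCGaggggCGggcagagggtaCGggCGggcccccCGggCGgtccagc
Hsd3b1 (chr3:98859795-98860044, minus strand): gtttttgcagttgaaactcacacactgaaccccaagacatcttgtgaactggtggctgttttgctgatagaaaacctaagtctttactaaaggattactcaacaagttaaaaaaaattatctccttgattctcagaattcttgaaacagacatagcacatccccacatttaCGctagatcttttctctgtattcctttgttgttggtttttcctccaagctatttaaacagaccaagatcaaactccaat
Hsd3b6 (chr3:98814444-98814693, minus strand): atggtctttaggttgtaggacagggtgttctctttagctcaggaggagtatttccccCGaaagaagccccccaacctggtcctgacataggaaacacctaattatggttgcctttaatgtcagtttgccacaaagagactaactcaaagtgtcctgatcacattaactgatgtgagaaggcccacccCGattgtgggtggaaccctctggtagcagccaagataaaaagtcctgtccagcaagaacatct
The printed stretch of Insl3 holds 10 CG sites in 212 bases and that of Lhcgr 12 in 250 bases. The stretch of Hsd3b1 holds 1 CG site in 250 bases and that of Hsd3b6 holds 2. The Lhcgr sites sit mostly in the part nearest the start, whereas the Insl3 sites are spread along the stretch.

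Over whole probes the 10 promoters held between 7 and 70 CG sites. Hsd3b1 had 7, Hsd3b6 11, Star 14, Cyp17a1 16, Hsd17b3 20, Nr5a1 20, Cyp11a1 23, Lhcgr 51, Scarb1 64 and Insl3 70. The quartiles over all promoters were 23, 45 and 70, so 7 of the 10 members lay at or below the first quartile. Counted in the reference, 9 of the 10 gave the deposited number, and Scarb1 gave 63. Within 400 bp upstream and 200 bp downstream of the start, Insl3 and Scarb1 held 35 CG sites each, Lhcgr 29 and Nr5a1 16, beside a median of 25 over all probes. The other 6 members held between 3 and 8 there.

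**Figure D1:**
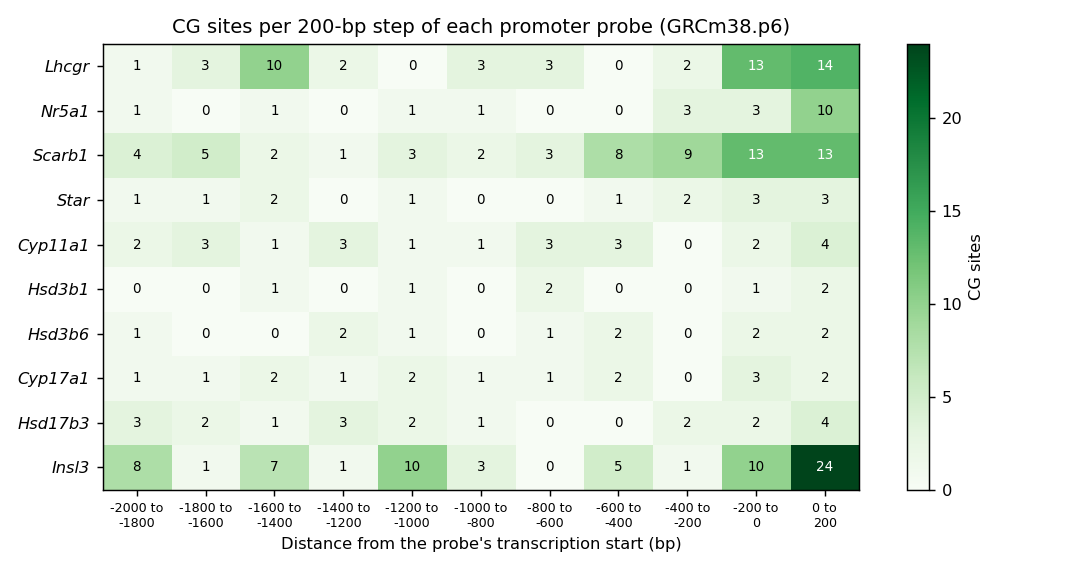
CG sites in steps of 200 bp along the 2200-bp probe of each member (rows), by distance in bp from the probe's transcription start (horizontal axis), with the count written in each cell and shaded by its size. Insl3 reached 24 sites in the last step, Lhcgr 14 and Scarb1 13, whereas Hsd3b1 and Hsd3b6 had 2 each.

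In each of the 4 groups the capture signal of 8 of the 10 promoters lay above the median of all promoters. Most of the 10 are poor in CG. Hsd3b1 lay below it in all 4 groups, Hsd3b6 in both control groups, Nr5a1 in C57BL/6J DEHP and Insl3 in FVB/N DEHP. The median of the members was 12.1, 8.0, 5.4 and 8.85 normalized reads in the group order above. Divided by the number of CG sites, the members had a median of 0.451, 0.418, 0.268 and 0.455 normalized reads per CG site. Over all promoters the medians were 0.138, 0.131, 0.0844 and 0.123. A small number of CG sites raises this ratio, and it was not compared among promoters of like CG content. Among the 10 members the level went with the number of CG sites in both control groups (Spearman rho 0.75 in C57BL/6J and 0.62 in FVB/N, n = 10 promoters), and rho was 0.63 in C57BL/6J DEHP and 0.16 in FVB/N DEHP. Over all promoters rho was -0.07, -0.25, -0.05 and -0.21 in the group order above. These correlations are across promoters of the same libraries and describe them only.

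**Figure D2:**
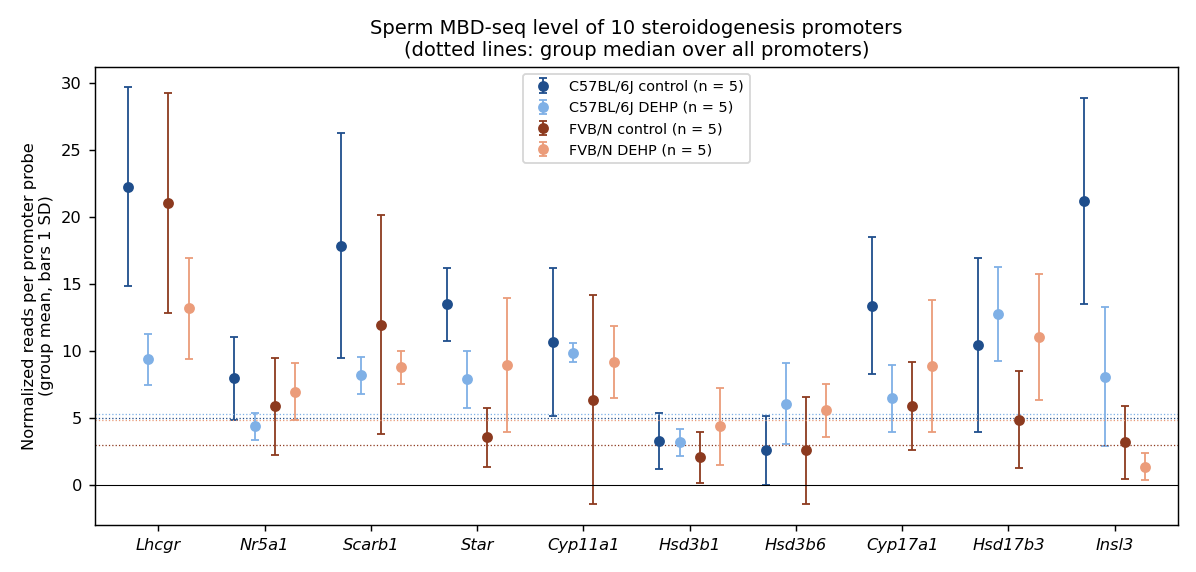
Mean normalized reads (points) with 1 SD (bars) for each member in the 4 groups of 5 males, with dotted lines at each group's median over all promoters. Insl3 ranged from 21.2 in C57BL/6J control to 1.4 in FVB/N DEHP, the widest range of the 10, and Hsd3b1 stayed between 2.1 and 4.4. Bars that cross 0 belong to groups whose SD exceeded the mean.

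Lhcgr encodes the receptor for luteinizing hormone, the entry point of the pathway (probe chr17:88791777-88793976, minus strand). It had the highest mean over the 4 groups of the 10 members, with 22.3 ± 7.4 normalized reads in C57BL/6J control, 9.4 ± 1.9 in C57BL/6J DEHP, 21.1 ± 8.2 in FVB/N control and 13.2 ± 3.8 in FVB/N DEHP (mean ± SD, n = 5, as for every value in this form below). Both control groups were high and close to each other, and both DEHP groups were lower. In the order of the 4 means, no neighbours differed by more than the larger of their SDs.

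Nr5a1 encodes steroidogenic factor 1, the nuclear receptor that switches on the steroid enzymes (chr2:38714343-38716542, minus strand). Its levels were 8.0 ± 3.1 in C57BL/6J control, 4.4 ± 1.0 in C57BL/6J DEHP, 5.9 ± 3.6 in FVB/N control and 7.0 ± 2.1 in FVB/N DEHP. All 4 means lay close together, with neighbours in the order inside the larger SD. The probe lies within the antisense gene Nr5a1os, so the same DNA belongs to both genes.

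Scarb1 encodes SR-BI, the surface receptor that takes up cholesterol esters from HDL (chr5:125340895-125343094, minus strand). It read 17.9 ± 8.4 in C57BL/6J control, 8.2 ± 1.4 in C57BL/6J DEHP, 12.0 ± 8.2 in FVB/N control and 8.8 ± 1.2 in FVB/N DEHP. Both control groups were wide and both DEHP groups narrow. Star encodes the carrier that brings cholesterol to the inner mitochondrial membrane, the step under acute hormonal control (chr8:25806513-25808712, plus strand). Its levels were 13.5 ± 2.7, 7.9 ± 2.1, 3.6 ± 2.2 and 9.0 ± 5.0, with the C57BL/6J groups first and control before DEHP in each strain. C57BL/6J control was the highest group and FVB/N control the lowest, and only the step down to FVB/N control exceeded the larger SD of its neighbours. Nearly all of the Star probe lies within the annotated gene, which has an exon near the upstream end of the probe.

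The side-chain cleavage enzyme, which makes pregnenolone from cholesterol, is encoded by Cyp11a1 (chr9:58013017-58015216, plus strand). Its 4 levels were 10.7 ± 5.5, 9.9 ± 0.7, 6.4 ± 7.8 and 9.2 ± 2.7 in the same group order, and no neighbours differed by more than the larger SD. The Cyp11a1 probe lies wholly within the annotated gene, which begins further upstream. Hsd3b1 and Hsd3b6 encode 3-beta-hydroxysteroid dehydrogenases, which move the double bond and oxidize pregnenolone to progesterone, and Hsd3b6 is a form of adult Leydig cells. They lie near each other on chromosome 3 (Hsd3b1 chr3:98859595-98861794 and Hsd3b6 chr3:98814244-98816443, both on the minus strand), and no 49-base sequence was shared between member probes. Hsd3b1 read 3.3 ± 2.1, 3.2 ± 1.0, 2.1 ± 1.9 and 4.4 ± 2.9, below the median of all promoters in all 4 groups. Hsd3b6 read 2.6 ± 2.6, 6.1 ± 3.0, 2.6 ± 4.0 and 5.6 ± 2.0, with equal means in both control groups and higher means in both DEHP groups. The step from C57BL/6J control up to FVB/N DEHP exceeded the larger SD of these groups.

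Cyp17a1 encodes the 17-hydroxylase and lyase that turns progestins into androgens (chr19:46672801-46675000, minus strand). It read 13.4 ± 5.1 in C57BL/6J control, 6.5 ± 2.5 in C57BL/6J DEHP, 5.9 ± 3.3 in FVB/N control and 8.9 ± 4.9 in FVB/N DEHP. C57BL/6J control was the highest, but each step in the order stayed inside the larger SD. Repeats mask 53.0% of this probe, it also covers the pseudogene Gm6967, and 92.5% of its 49-base sequences occur once in the genome. Hsd17b3 encodes the dehydrogenase that makes testosterone from androstenedione (chr13:64089002-64091201, minus strand). Its levels were 10.5 ± 6.5, 12.8 ± 3.5, 4.9 ± 3.6 and 11.1 ± 4.7 in the same group order. FVB/N control was lowest, within the larger SD of its neighbour. This probe holds 18 variants between the strains, more than 93.1% of all promoters. Insl3 encodes insulin-like 3, the Leydig peptide of testicular descent (chr8:71687252-71689451, plus strand). Its 4 levels were 21.2 ± 7.7, 8.1 ± 5.2, 3.2 ± 2.7 and 1.4 ± 1.0, and both C57BL/6J means stood above both FVB/N means. The step from C57BL/6J control to C57BL/6J DEHP exceeded the larger SD, and the other steps did not. The whole probe lies within the annotated gene of Jak3, a kinase gene on the same strand, and its upstream part runs over Jak3 exons.

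DEHP against control was tested within each strain by limma's moderated test, rebuilt from the group means and SDs over all 22480 promoters, with Benjamini-Hochberg adjustment and a call at an adjusted p under 0.05. In C57BL/6J, 4 of the 10 promoters were lower with DEHP and none was higher, where 13.3% of all promoters were called lower and 2.93% higher. The 4 were Insl3, Lhcgr, Scarb1 and Cyp17a1, which cover the peptide hormone, the hormone receptor, cholesterol uptake and androgen synthesis. Of the members, 7 had an unadjusted p under 0.05. With equal sums limma called 0 members lower and 1, Hsd3b6, higher (4 had an unadjusted p under 0.05). Over all promoters 3.08% were then called lower and 11.6% higher, so these calls depend on how the groups are scaled. With equal medians Insl3, Lhcgr, Scarb1 and Cyp17a1 kept their calls (limma adjusted p 0.00169, 0.00334, 0.00976 and 0.0225). The share of all promoters called with equal medians is not given here. Without a variance trend 2 were called lower (9.19% of all promoters), Lhcgr and Star (limma adjusted p 0.0324 and 0.0424). Insl3, Cyp17a1 and Scarb1 then lost their calls (limma adjusted p 0.0546, 0.0909 and 0.104). At the study's stricter threshold, applied to the rebuilt test, none was called lower (0.872%).

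For Insl3 the difference was -13.1 ± 3.39 normalized reads (limma's SE), a log2 ratio of -1.29 with an adjusted p of 0.00296 in limma. With equal sums the log2 ratio was -0.76 and limma's adjusted p 0.079. Lhcgr differed by -12.9 ± 3.61, a log2 ratio of -1.16 (limma adjusted p 0.00616), and by a log2 ratio of -0.63 with equal sums (limma adjusted p 0.141). The range that 5 values of this mean and SD can take still overlapped between the groups for both genes, so it is not known whether single libraries overlapped.
Scarb1 differed by -9.7 ± 3.07, a log2 ratio of -1.04 (limma adjusted p 0.0167), which was -0.52 with equal sums (0.244 in limma). Cyp17a1 differed by -6.9 ± 2.47, a log2 ratio of -0.94 (limma adjusted p 0.0376), which was -0.43 with equal sums (0.359 in limma). All 4 kept the lower direction under each scaling tried.

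Of the other 6 members in C57BL/6J, Hsd3b6 differed by 3.5 ± 1.46 normalized reads, a log2 ratio of 0.98 with a limma adjusted p of 0.0817, and of 1.38 with equal sums (limma adjusted p 0.0123). It stood with its log2 ratio above 94.3% of all promoters. Star had a log2 ratio of -0.70 (limma adjusted p 0.123) and Nr5a1 of -0.74 (limma adjusted p 0.156). Hsd17b3 had 0.26 and did not pass either. Cyp11a1 had -0.10 and Hsd3b1 -0.03 as deposited, and both turned to 0.41 and 0.38 with equal sums. The median log2 ratio of the 10 members was -0.72 beside -0.10 over all promoters, and -0.22 beside 0.33 with equal sums. The members' median level in C57BL/6J control was 12.1 normalized reads beside 5 over all promoters. Over all promoters the group sum fell from 226268 in control to 153283 in DEHP, whereas the median went from 5 to 5.3. Promoters of like level were not compared, so the part of level in these ratios was not tested.

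**Figure D3:**
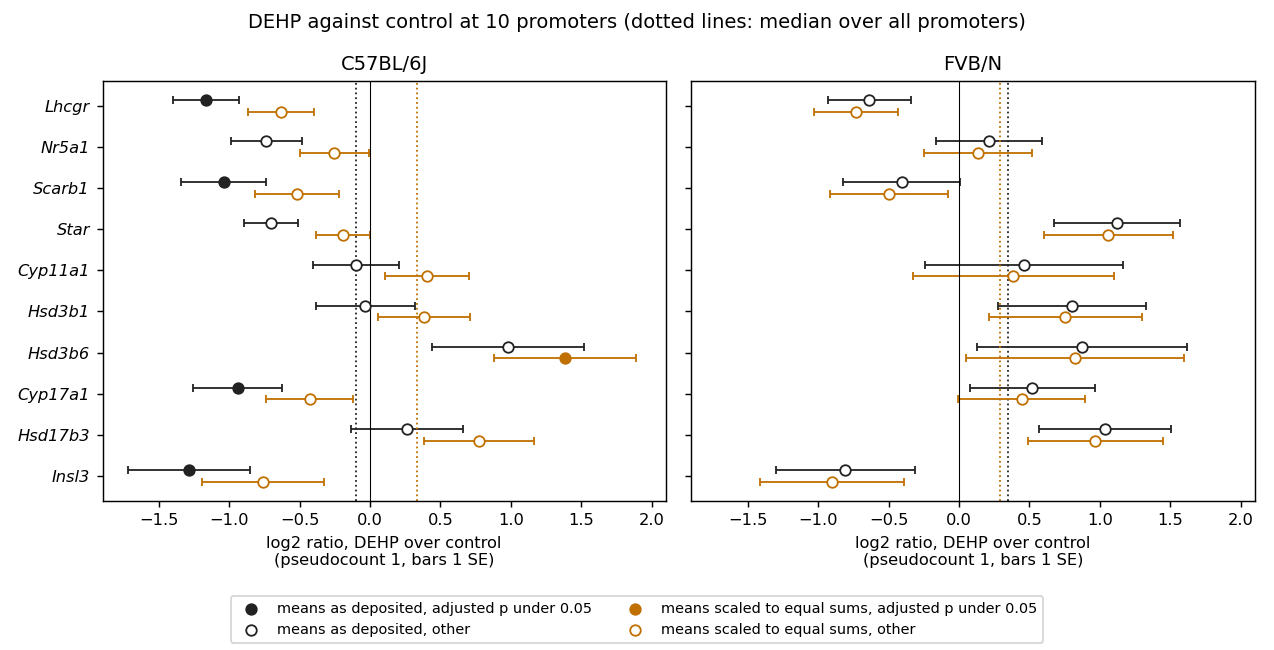
Log2 ratio of DEHP over control (points, pseudocount 1) with 1 SE (bars) for each member in C57BL/6J (left) and FVB/N (right), with means as deposited in black and scaled to equal sums in orange. Filled points have a limma adjusted p under 0.05, and dotted lines mark the median over all promoters. In C57BL/6J 4 members are filled below 0 as deposited and only Hsd3b6, at 1.38, with equal sums. No point is filled in FVB/N.

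In FVB/N none of the 10 promoters was called, where limma called 1.35% of all promoters lower and 1.44% higher. With equal sums, too, limma called no member (3 had an unadjusted p under 0.05), and 1.53% of all promoters lower and 0.894% higher. Star had the largest log2 ratio, 1.12 (difference 5.4 ± 2.22 normalized reads, limma adjusted p 0.153), followed by Hsd17b3 with 1.04 (6.2 ± 2.49, limma adjusted p 0.144). These 2 had an unadjusted p under 0.05. Hsd3b6 stood at 0.87, Hsd3b1 at 0.80, Cyp17a1 at 0.52, Cyp11a1 at 0.46 and Nr5a1 at 0.21. Insl3, at -0.81, Lhcgr, at -0.64, and Scarb1, at -0.41, were below 0 under each scaling, and limma's adjusted p of Lhcgr was 0.233 as deposited and 0.0503 with equal medians. The median of the members was 0.49 beside 0.35 over all promoters, and -0.13 beside -0.17 with equal medians, where Cyp17a1, Cyp11a1 and Nr5a1 also turned negative. In simulated data of this comparison the test called 0% of 2-fold and 7% of 4-fold decreases, against 10% and 49% in C57BL/6J. Only 100 promoters per fold size were changed there, with no difference in scale between groups, so these shares do not carry over to the real data. The share of true changes that the test finds in the real data is not known, so the absence of calls in FVB/N says little.

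The difference between the strains in their DEHP response was tested by the interaction over all 4 groups, and none of the 10 members was called, where limma called 0.0578% of all promoters lower and 0.0133% higher. Star came nearest: its log2 ratio for DEHP stood at -0.70 among C57BL/6J males against 1.12 among FVB/N males, an interaction of -11.0 ± 3.25 normalized reads and -1.82 on the log2 scale (limma adjusted p 0.131, and 0.995 with equal sums). Insl3 (limma adjusted p 0.152) and Cyp17a1 (limma adjusted p 0.167) followed, and these 3 had an unadjusted p under 0.05. On the log2 scale the interaction of Insl3 was -0.48, beside a median of -0.50 over all promoters, and 0.14 with equal sums. That of Cyp17a1 was -1.46, and -0.88 with equal sums. Tested on the log2 scale, 2 members had an unadjusted p under 0.05. At Lhcgr and Scarb1 both strains had a lower mean with DEHP, with limma adjusted p of 0.659 and 0.456 for the interaction. The median interaction of the members was -0.70 beside -0.50 over all promoters, and -0.11 beside 0.02 with equal sums.

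Between the strains, 2 members were higher in C57BL/6J control than in FVB/N control, where 2.54% of all promoters were called higher, and none was lower, where 0.0267% were called. These comparisons use the same control libraries as those above. Insl3 differed by 18.0 ± 3.44 normalized reads, a log2 ratio of 2.40 (limma adjusted p 0.00563), and by 1.79 on the log2 scale with equal sums (limma adjusted p 0.196). Star differed by 9.9 ± 2.39, a log2 ratio of 1.66 (limma adjusted p 0.0255), and by 1.06 with equal sums (limma adjusted p 0.647). With equal sums limma called neither (2 members had an unadjusted p under 0.05), where 0.0712% of all promoters were called higher, nor with equal medians (0.0623%) or at the study's threshold applied to the rebuilt test (0.089%). At Star the groups stood apart as deposited: no library of C57BL/6J control can lie below 8.53 and none of FVB/N control above 7.67, given their means and SDs. Of all promoters, 1.06% stood apart in this direction, and with equal sums Star no longer did. The remaining 8 had log2 ratios between 0.00 at Hsd3b6 and 1.06 at Cyp17a1 as deposited, and with equal sums 5 of the 10 were below 0, Lhcgr lowest at -0.57.

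In the DEHP groups the strains differed at Insl3 alone of the 10 members, where 0.912% of all promoters were called higher and 0.0712% lower. Insl3 read 8.1 ± 5.2 in C57BL/6J DEHP and 1.4 ± 1.0 in FVB/N DEHP, a difference of 6.7 ± 1.40 and a log2 ratio of 1.92 (limma adjusted p 0.000678). The call held with equal sums (limma adjusted p 0.000842, 0.819% of all promoters called higher) and with equal medians (limma adjusted p 0.0017, 0.627%), and it was lost without a variance trend (limma adjusted p 0.407, 0.0578%). Insl3's log2 ratio between the strains exceeded that of 99.7% of all promoters in both the control and the DEHP comparison. The other 9 members lay between -0.57 at Nr5a1 and 0.19 at Hsd17b3. Variants were listed in 5 of the 10 probes, 18 at Hsd17b3, 5 at Insl3, 4 at Hsd3b1 and 1 each at Cyp17a1 and Hsd3b6, and Star had none. The part of these variants in the strain differences was not tested.

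The spread between libraries, compared as deposited, also differed between groups. The SDs were not compared with equal sums. The sum of C57BL/6J control was 1.48 times that of C57BL/6J DEHP, so the counts in C57BL/6J depend on how the groups are scaled. In C57BL/6J the SD was smaller with DEHP than in controls at 9 of the 10 members, all but Hsd3b6. It was smaller at 69.8% of the 10078 promoters with a mean of at least 5 normalized reads in both groups. Hsd3b1, Hsd3b6 and Nr5a1 do not reach that mean in both groups. Cyp11a1 had an SD of 5.5 in C57BL/6J control and 0.7 in C57BL/6J DEHP, with nearly equal means, and Scarb1 had 8.4 and 1.4. Among the 10078 promoters, 0.417% had an SD ratio as low as that of Cyp11a1 and 0.933% as low as that of Scarb1. In FVB/N 6 of the 10 had a smaller SD with DEHP, beside 83.5% of the 7393 promoters that reach that mean there. Of the members only Cyp11a1, Cyp17a1, Lhcgr, Nr5a1 and Scarb1 reach it in FVB/N. All of these but Cyp17a1 had a smaller SD with DEHP. In FVB/N the SD of Scarb1 went from 8.2 to 1.2, a ratio that 1.73% of the 7393 promoters reached. The SD of Star went up from 2.2 to 5.0 while its mean rose from 3.6 to 9.0. Relative to the mean, the SD of Star was 61.1% in FVB/N control and 55.6% in FVB/N DEHP. No test of the SDs was run, since single libraries were not used here.

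**Figure D4:**
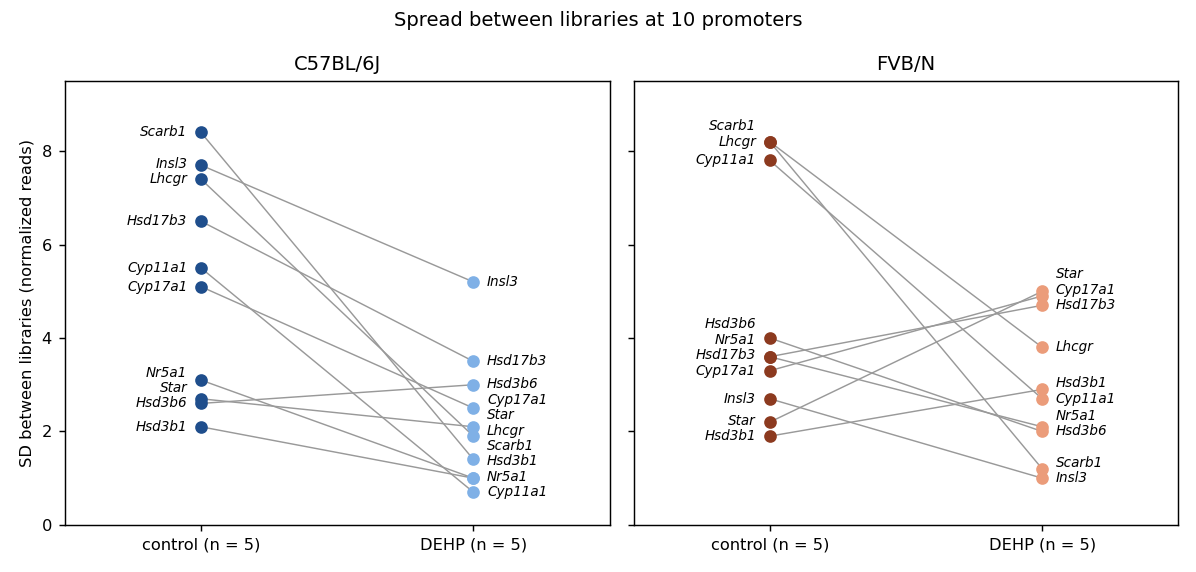
SD between the 5 libraries of a group (vertical axis, normalized reads) in control and DEHP groups of C57BL/6J (left) and FVB/N (right), with a line for each member. The SDs are as deposited, without scaling to equal sums. In C57BL/6J 9 of the 10 lines go down, and Cyp11a1 ends at 0.7. In FVB/N 6 go down and Star rises from 2.2 to 5.0, while its mean rose from 3.6 to 9.0.

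Beside promoters of like CG content, the medians of the members were lower in C57BL/6J in 3 of 4 CG classes, and higher in the class of Cyp11a1. The classes were not matched for level. Promoters with at most 20 CG sites had a median log2 ratio of 0.34 for DEHP over control in C57BL/6J, and the 6 members in that class (Star, Cyp17a1, Hsd3b1, Hsd3b6, Hsd17b3 and Nr5a1) had -0.37. With equal sums the values were 0.74 and 0.10. Lhcgr stood at -1.16 beside -0.14 for promoters with 41 to 60 CG sites, and Insl3 and Scarb1 had a median of -1.16 beside -0.17 for those with over 60. Cyp11a1, in the class with 21 to 40, stood at -0.10 beside -0.41, and at 0.41 beside 0.09 with equal sums. In FVB/N the 6 CG-poor members had a median of 0.84 beside 0.73 for their class, and the CG-rich Lhcgr, Insl3 and Scarb1 stayed below 0 in classes whose medians were between 0.23 and 0.30.

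The promoters most like Star over the 4 groups, by the Euclidean distance of log2(mean + 1), were Mars at 0.12, Glyatl3 at 0.16 and Ints1 at 0.16. Mars, for example, read 12.8, 7.7, 3.6 and 8.4 normalized reads in the order C57BL/6J control, C57BL/6J DEHP, then the FVB/N groups likewise. Those most like Lhcgr were Gtf2h3 at 0.09, Fbp2 at 0.18 and Zmynd10 at 0.19. Among the members themselves Cyp11a1 and Hsd17b3 were nearest to each other, at 0.53, and Hsd3b1 and Hsd3b6 at 0.88. Insl3 was the most distant, 2.15 from its nearest member, Star.

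The authors added the expression of each gene in total testis at 8-9 weeks from another dataset, on a scale that is not stated. Of the members, 8 had a value and 7 of them lay above the median of all promoters with a value, 5.82. Cyp17a1 was highest at 11.4, above 97.9% of them, followed by Scarb1 at 9.00, Hsd17b3 at 8.73, Hsd3b1 at 8.57, Star at 7.16, Nr5a1 at 6.27 and Cyp11a1 at 6.09. Lhcgr, the member with the highest capture signal, was the only one below that median, at 3.50.

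Other genes of steroid hormone synthesis and its control were taken from 4 lists. Beside their counts, limma called 13.3% of all promoters lower and 2.93% higher in C57BL/6J as deposited, and 3.08% and 11.6% with equal sums. In FVB/N it called 1.35% lower and 1.44% higher as deposited, and 1.53% and 0.894% with equal sums. Of 31 further steroid enzymes, 28 had a promoter in the table, and in C57BL/6J 6 were called lower with DEHP and 1 higher, with a median log2 ratio of 0.08 beside -0.10 over all promoters. With equal sums 2 were called lower and 4 higher, Hsd11b1 with Hsd3b3, Hsd17b7 and Akr1c18. In FVB/N 2 were lower and 2 higher. Hsd3b7, an enzyme of bile acid synthesis, went from 86.4 ± 29.7 to 18.4 ± 7.5 in C57BL/6J and from 64.3 ± 12.1 to 21.0 ± 8.0 in FVB/N, log2 ratios of -2.17 and -1.57 (limma adjusted p 6.67e-05 and 0.00419). Hsd17b2, which inactivates estradiol and testosterone, had log2 ratios of -1.47 and -0.90 (limma adjusted p 0.00191 and 0.0461). Hsd11b1, which regenerates glucocorticoid, had 1.16 and 1.34 (limma adjusted p 0.0155 and 0.0479). Hsd3b7 and Hsd17b2 were called lower in both strains also with equal sums, and Hsd11b1 was then called higher in C57BL/6J but not in FVB/N (limma adjusted p 0.0628).

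The other enzymes called lower in C57BL/6J were Hsd17b1 (28.0 ± 9.3 against 69.4 ± 35.8), Hsd17b4 (4.2 ± 1.1 against 9.7 ± 3.3), Hsd11b2 (5.4 ± 2.6 against 13.7 ± 3.9) and Cyb5b (4.4 ± 0.9 against 12.3 ± 4.2), and with equal sums limma's adjusted p of these 4 lay above the threshold. Hsd17b6 was called higher in FVB/N, 5.5 ± 1.1 against 0.6 ± 0.9 in control, and not in C57BL/6J, where its log2 ratio was 0.69. With equal sums the call in FVB/N held (log2 ratio 2.05, limma adjusted p 0.0253). The difference between the strains at this gene did not pass the interaction test (limma adjusted p 0.386). Cyp19a1, the aromatase, had log2 ratios of 0.05 and 1.17 in C57BL/6J and FVB/N and was not called. The 5-alpha-reductase genes Srd5a1 (-0.21 and 1.02) and Srd5a2 (-0.95 and -0.23), and the electron carriers of mitochondrial P450 enzymes Fdx1 (0.17 and 1.04) and Fdxr (0.10 and 1.23), were not called in either strain.

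All 28 genes of cholesterol supply had a promoter in the table. In C57BL/6J 4 were called lower and none higher, where limma called 13.3% and 2.93% of all promoters. The median log2 ratio of the 28 was -0.32, beside -0.10 over all promoters. With equal sums 2 were called lower and 2 higher, Cyp51 and Nsdhl, beside 3.08% and 11.6% of all promoters. Lcat, which esterifies cholesterol in plasma, went from 109.0 ± 33.7 to 25.9 ± 10.8 in C57BL/6J and from 92.8 ± 18.3 to 33.5 ± 4.6 in FVB/N (log2 ratios -2.03 and -1.44, limma adjusted p 0.000253 and 0.00347), and it was called lower in both strains with equal sums as well. Msmo1, Stard3 and Srebf1 were also called lower in C57BL/6J, of which Msmo1 kept the call with equal sums. Tspo, Soat1 and Lipe were not called in either strain, with log2 ratios in C57BL/6J of -0.56, 0.33 and -0.66.

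Of 40 regulators and hormones of Leydig cells, 34 had a promoter in the table. In C57BL/6J 6 were called lower (Cebpb, Jun, Pdgfra, Inha, Lhb and Gnrhr) and 1 higher (Gnrh1), beside 13.3% and 2.93% of all promoters. In FVB/N limma called none of them, and 6 had an unadjusted p under 0.05. The median log2 ratio of these 34 was -0.38 in C57BL/6J. With equal sums Inha was the only one lower, and Gnrh1, Fshr and Esr1 were higher, beside 3.08% and 11.6% of all promoters. Inha, the inhibin alpha subunit, read 4.2 ± 2.9 against 20.1 ± 11.0 in C57BL/6J, and Lhb, the beta subunit of luteinizing hormone, 10.4 ± 4.1 against 22.6 ± 10.2. Rxfp2, the receptor of insulin-like 3, read 17.4 ± 5.1 against 31.2 ± 4.8 in C57BL/6J (limma adjusted p 0.0606). Nr4a1, Nr2f2, Gata4, Dhh and Nr0b1 were not called, with log2 ratios in C57BL/6J of -0.87, -0.79, -0.36, -0.20 and 0.61. Of 12 promoters of Sertoli cell marker genes, Amh, Gata1 and Trf were called lower in C57BL/6J as deposited and with equal sums. The shares of all promoters called lower were 13.3% and 3.08%. In FVB/N limma called none of the 12, and 0 had an unadjusted p under 0.05. The median of the 12 was -0.39 in C57BL/6J. Amh, the anti-Müllerian hormone, read 13.4 ± 6.8 against 38.4 ± 7.3. Fshr, which is in both of these lists, read 15.7 ± 4.1 against 12.0 ± 2.9 and was called higher with equal sums but not as deposited.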

How the data were processed

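Sperm DNA of 20 F1 males was captured with a methyl-binding domain (MBD) and sequenced. With Bowtie 0.12.7 the authors mapped the read-pairs to mm10, then dropped ambiguous and widely spaced pairs and those without CpG. Pairs over each promoter probe were counted and edgeR-normalized by the authors. The signal values deposited are group means and SDs of these normalized reads, to 1 decimal. The columns name the FVB/N groups FVBNJ. Numbers of CG sites and of strain variants, and a testis expression score of unstated scale, were deposited as annotations. Single-library values were not used here, so the depth of each library is unknown and the SD is the error. The study reports more read-pairs on average, and slightly longer reads, for the DEHP libraries than for the control libraries. The deposited fold changes, p-values and FDR hold the study's own comparisons and were not used.

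A moderated test was rebuilt from means, SDs and n with limma 3.58.1 in R 4.3.3, on the linear scale, two-sided, with a variance trend on log2(mean + 1), over 22480 promoters, with Benjamini-Hochberg adjustment. The 2 groups compared entered each fit, and all 4 groups the interaction. It replaces the count model that the study used, since no counts are at hand. Log2 ratios used a pseudocount of 1. Groups were counted as apart where the means plus and minus 1.79 SD, the farthest any of 5 values can lie, widened by 0.139 for rounding, did not overlap. In simulated data the test made 0 false calls in either DEHP comparison, and no separation was wrong. Those data held few changed promoters and no difference in scale between groups. They do not show how many calls in the real data are false. Sequence, repeats, CG sites and 49-base sequences that occur once came from GRCm38.p6, and exons from its GENCODE annotation. Promoter sequences came from RefSeq. Python 3.11.15, numpy 2.4.6, pandas 2.3.3, statsmodels 0.14.6 and numba 0.67.0 were used.

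The members and gene lists were chosen with earlier results of these data known. Named were all 10 members, a set of list genes whatever their values, every list gene called in a DEHP comparison, the 3 promoters nearest to Star and to the member with the highest mean, and each member's nearest member. Of these, Por is not analysed here, and some list genes, left out whatever their values, are not reported here. Alternatives were equal sums, equal medians, the log2 scale, a mean of at least 1 normalized read, the study's threshold (p under 2.22e-06 and an absolute log2 ratio above 1), a pseudocount of 0.1, removal of the trend on CG sites (lowess fraction 0.3), a bound of 1 SD, and no variance trend, which was added after seeing the data.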

Additional observations from a re-analysis of the deposited data

How the results depend on the processing

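No paired analysis was possible because the deposited table holds group means and SDs with no single-library values, and leaving out each replicate in turn was not run for the same reason. For DEHP against control in C57BL/6J, where 4 members were called lower and 0 higher, means scaled to equal sums gave 0 lower and 1 higher. Equal medians left these counts at 4 and 0. The study's threshold, applied to the rebuilt test and not to the study's own, gave 0 lower, and no variance trend gave 2 lower. For C57BL/6J against FVB/N in controls, where 2 members were called higher, equal sums, equal medians and the study's threshold on the rebuilt test each gave 0. For C57BL/6J against FVB/N in DEHP, where 1 was called higher, no variance trend gave 0. The number of members whose groups stood apart was 0 lower in C57BL/6J DEHP, 1 higher in C57BL/6J control and 0 higher in C57BL/6J DEHP against FVB/N DEHP. A bound of 1 SD, which does not show that libraries stay apart, gave 3, 2 and 1. The share of all promoters at that bound is not given here, so these counts cannot be called unusual. Equal sums and equal medians gave 0 for the controls. Of 50 single-gene results, equal sums changed the call of 7, equal medians of 2 and no variance trend of 5, and the log2 scale and the filter on means changed none. No call was made with the pseudocount of 0.1, which turned no direction, or with the CG trend removed, which turned 7. Equal sums and equal medians turned the direction of 9 log2 ratios each, none of them called under either, and the cause was not tested. With equal sums these were, for DEHP in C57BL/6J, Cyp11a1 (0.41) and Hsd3b1 (0.38), and for the controls, Hsd3b1 (-0.021), Lhcgr (-0.57), Nr5a1 (-0.21) and Scarb1 (-0.10). For the interaction they were Cyp11a1 (0.018), Lhcgr (0.095) and Insl3 (0.14). With equal medians they were, for DEHP in FVB/N, Cyp11a1 (-0.17), Cyp17a1 (-0.10) and Nr5a1 (-0.41), and for the controls, Hsd3b1 (-0.064), Lhcgr (-0.63), Nr5a1 (-0.26) and Scarb1 (-0.15). Between the DEHP groups Cyp11a1 turned (-0.0066), and for the interaction Lhcgr (0.085). The members' median turned negative for DEHP in FVB/N with equal medians (-0.13) and with the CG trend removed (-0.049), and for the controls with equal medians (-0.030). None of these results separates DEHP from the submission of the libraries, and the unknown depth of each library limits each level.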
